A study of Mus musculus with 7 samples.

Results

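The 10 genes described here encode heat shock chaperones of the cytosol and the mitochondrion and a factor that carries HSP70 into the nucleus. They were chosen as a list of names (Hsp90aa1, Hsp90ab1, Hspa8, Hspa4, Hsph1, Dnaja1, Hikeshi, Hspa9, Hspd1 and Hspe1) and are 10 of the genes of a series in which 13553 genes had a transcript start or end value. By Ensembl identifier, 9 of the 10 were found; Hspa8 was not, because its 33 distinct events are filed under the identifier of Snord14e, a small nucleolar RNA gene that lies in an intron of Hspa8. Its values were therefore taken from events whose boundaries are those of annotated Hspa8 transcripts. The study asked which genes change expression when neural progenitors are exposed to insecticides.

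Total RNA was sequenced from 7 cultures, all from the mouse embryonic stem cell line B6G-2 of wild-type (WT) genotype: 1 each exposed to chlorpyrifos, DDT, rotenone, carbaryl, deltamethrin or imidacloprid, and 1 control. In every culture embryoid bodies were grown for 6 days, progenitors were expanded in RHB-A medium with bFGF and EGF on poly-ornithine and laminin, and day 14 progenitors were moved to BrainPhys medium with B27; exposure lasted 1 day. The labels used here give neither a dose nor a vehicle, and they call the tissue brain although the cells came from a single stem cell line. With 1 library per group there was no replicate check, no test was possible and no p-value is given. A difference named below is one between 2 libraries, and its size can be compared only with the differences seen among all genes.

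The libraries held 93977 to 95776 distinct events each, in FPKM (fragments scaled by transcript length and by the size of the library); their depth is unknown. Cell type markers were read as summed FPKM over fixed lists. The sum of 6 neuronal markers was 204.7 to 236 with the insecticides and 214 in control, although the neuronal tubulin gene Tubb3 was not listed. Most of that sum was Map2 (mean 146 FPKM). Stmn2 alone was 51.5 FPKM with chlorpyrifos, 42.2 with imidacloprid and 23.1 to 40.3 with the other insecticides, against 20.0 in control. The sum of 6 progenitor markers was 1222 to 1494 with the insecticides and 1344 in control, with Fabp7 not listed. Most of it was Vim (mean 1119 FPKM). Astrocyte markers summed to 122 to 159 FPKM with the insecticides and 124 in control, with Gfap, Aqp4 and S100b under 1 FPKM, and oligodendrocyte lineage markers to 113 FPKM with DDT, 160 to 174 FPKM with the other 5 insecticides and 165 FPKM in control, with Olig1 and Pdgfra not listed. Nearly all of that sum was Olig2, whose end total averaged 154.7 FPKM while its start total was listed only with DDT and imidacloprid. Fibroblast markers summed to 30.1 FPKM with rotenone, 20.3 to 23.2 FPKM with the other insecticides and 23.6 FPKM in control. All 4 microglial markers were unlisted in all libraries, embryonic stem cell markers summed to at most 0.64 FPKM and endothelial markers to 1.12 to 1.77 FPKM. The part that cell composition played in any result below was not tested, and in bulk RNA fewer cells of a type and less RNA per cell cannot be told apart.

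Chaperones bind unfolded protein chains and release them in cycles driven by ATP. HSP70 proteins are loaded with clients by J-domain proteins and emptied by nucleotide exchange factors; many clients then pass to HSP90, and in the mitochondrial matrix a chaperonin barrel and its lid finish folding. Most of these genes have constitutive expression that rises further in heat or protein stress through heat shock factor 1, which binds heat shock elements made of inverted GAA units. Neurons and their progenitors rely on the constitutive members, among them Hspa8.

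Promoter sequences are shown because the members differ in heat shock element motifs and in start site use. They come from RefSeq windows (GRCm38.p6) of 250 bases before to 50 bases after an annotated start; 6 members had windows to search, 10 windows in all. The motif searched was 2 or more alternating GAA and TTC units with a 2-base gap between them, GAANNTTC or TTCNNGAA, each its own reverse complement, so that both strands are read together. It was found in 5 of the 10 windows, which hold matches at 3 promoters only, since the 2 Hsph1 windows overlap and share theirs and Hspd1 and Hspe1 share a site; 15.1% of all 32851 windows in the table hold it. At least 3 units in a row were in 0.603% of all windows (198) and at least 4 in 0.0244% (8). Capitals mark the matches.
Hspe1, chr1:55087898-55088197, plus strand: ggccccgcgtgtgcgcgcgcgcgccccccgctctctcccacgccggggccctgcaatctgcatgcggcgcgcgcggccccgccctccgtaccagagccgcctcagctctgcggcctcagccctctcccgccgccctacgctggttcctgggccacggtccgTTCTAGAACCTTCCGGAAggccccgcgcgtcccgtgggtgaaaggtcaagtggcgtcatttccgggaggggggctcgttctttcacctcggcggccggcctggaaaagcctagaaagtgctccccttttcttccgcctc
Hsph1, chr5:149636287-149636586, minus strand: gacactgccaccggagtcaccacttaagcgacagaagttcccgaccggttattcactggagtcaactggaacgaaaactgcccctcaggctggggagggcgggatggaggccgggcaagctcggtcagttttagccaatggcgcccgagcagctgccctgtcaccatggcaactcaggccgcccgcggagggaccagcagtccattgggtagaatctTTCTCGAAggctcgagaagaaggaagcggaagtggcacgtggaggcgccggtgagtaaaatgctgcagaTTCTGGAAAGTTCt
Dnaja1, upstream start, chr4:40722218-40722517, plus strand: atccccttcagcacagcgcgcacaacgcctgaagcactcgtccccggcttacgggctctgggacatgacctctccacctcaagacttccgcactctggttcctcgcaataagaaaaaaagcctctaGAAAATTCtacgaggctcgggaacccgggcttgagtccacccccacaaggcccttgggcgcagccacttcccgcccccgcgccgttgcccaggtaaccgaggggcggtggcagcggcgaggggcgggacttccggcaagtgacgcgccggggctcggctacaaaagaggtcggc
Dnaja1, downstream start, chr4:40722672-40722971, plus strand: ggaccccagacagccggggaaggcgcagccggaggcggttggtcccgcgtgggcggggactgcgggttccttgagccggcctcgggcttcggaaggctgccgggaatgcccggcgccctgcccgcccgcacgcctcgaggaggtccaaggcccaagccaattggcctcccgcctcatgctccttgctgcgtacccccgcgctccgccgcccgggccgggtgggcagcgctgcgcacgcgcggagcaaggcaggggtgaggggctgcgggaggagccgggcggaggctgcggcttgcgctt

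Hspe1 and Hspd1 lie head to head on chromosome 1 and share a run of 4 units, so that their windows are 2 of the 8 with such a run. A second window of Hspd1, the one that holds its 3 listed start events, had no match. Hsph1 had a run of 3 units and a further pair, and the upstream Dnaja1 window had 1 pair while the downstream window had none. The main listed Hsph1 start (149635970 to 149636171), with 37.8 to 45.1 FPKM, lies outside both Hsph1 windows. The listed Hsph1 starts inside those windows had at most 2.67 FPKM. The windows of Hikeshi and Hspa4 had no match. The only listed Hspa4 start (53300060 to 53300411) lies outside the Hspa4 window (53300430 to 53300729). A match describes the letters only.

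The deposited tables list, for each library, transcript start and transcript end events and exon events with an FPKM. A gene's level was taken as the mean of its summed start events and its summed end events where the 2 totals agreed (mean totals within 0.3 on the log2 scale), which held for 5 members: Hsp90aa1, Hspa4, Hspa9, Hspe1 and Hikeshi. For Hsp90ab1, Hspa8, Hsph1, Hspd1 and Dnaja1 the 2 totals did not agree and the level is the start total alone. Both totals come from the same assembled transcripts, so their agreement is no independent check of a level. The main Hsp90aa1 start, for example, had the same FPKM as its end in every library. Differences are given on the scale of log2(FPKM + 1), exposed minus control, and 2-fold means 1 on that scale.

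**Figure D1:**
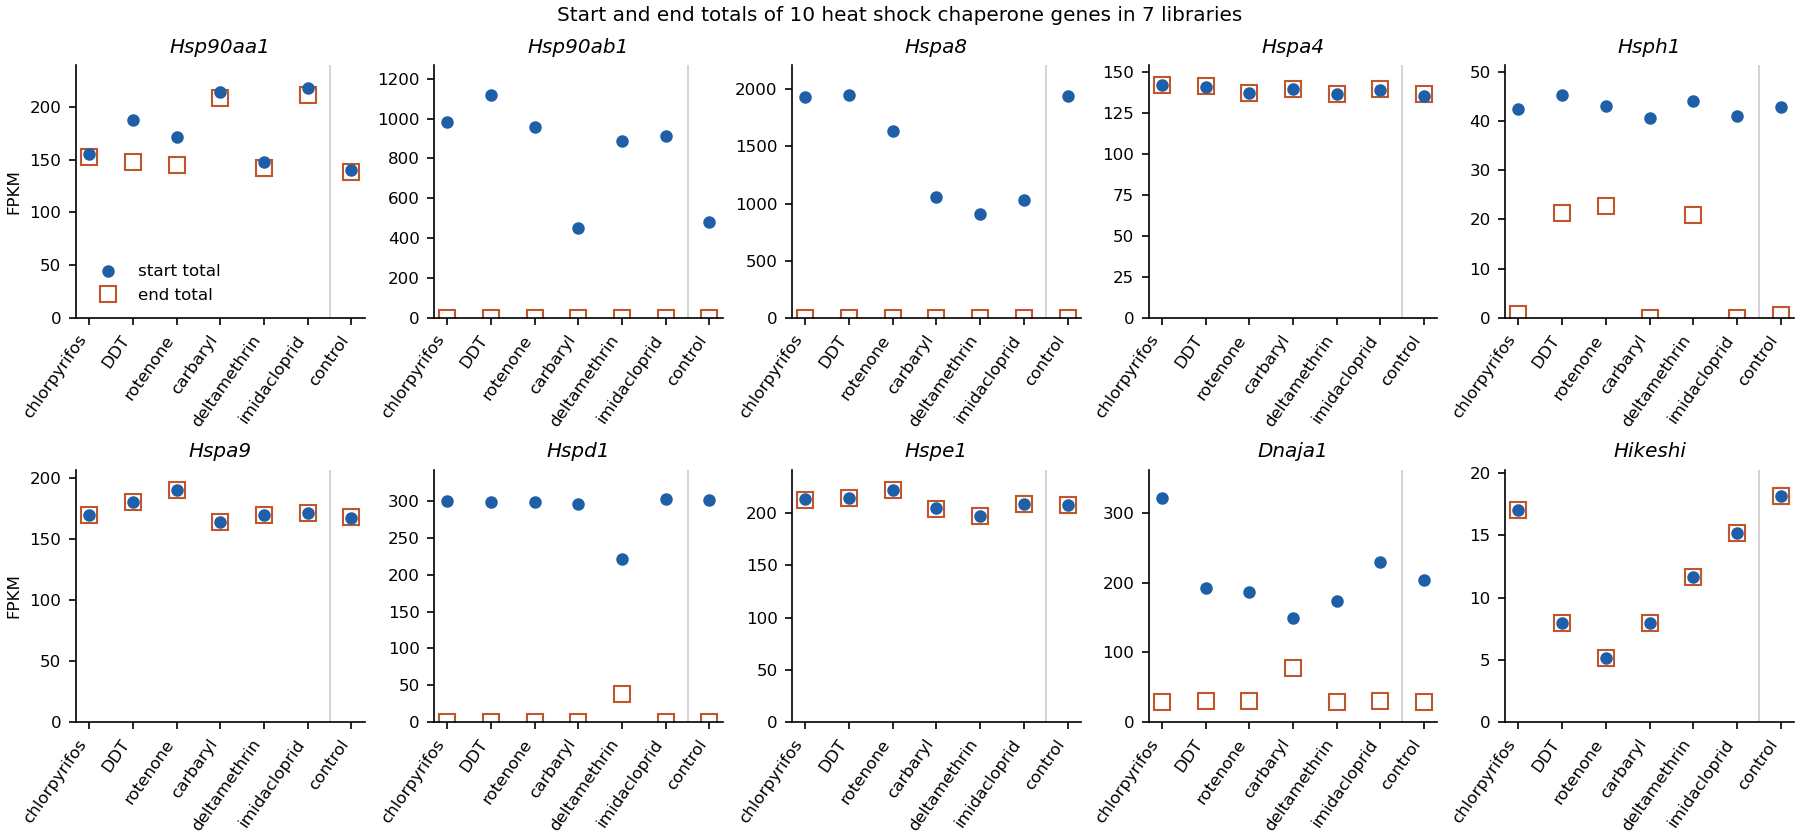
Start totals (filled circles) and end totals (open squares) in FPKM of the 10 genes, 1 point per library, with the 6 insecticides left of the vertical line and control right of it. Start and end totals lie together for Hspa4, Hspa9, Hspe1 and Hikeshi in all libraries and far apart for Hsp90ab1, Hspa8, Hspd1 and Dnaja1.

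Among the 5 members with agreeing totals, the count at 2-fold or more against control was 1 with DDT, 1 with rotenone and 1 with carbaryl, each time Hikeshi and each time lower, and 0 with chlorpyrifos, deltamethrin and imidacloprid. Over all genes tested the share at 2-fold was 1.61% with chlorpyrifos, 1.74% with DDT, 1.61% with rotenone, 2.14% with carbaryl, 1.71% with deltamethrin and 1.69% with imidacloprid. The median log2 difference of the 5 members lay between -0.02 (carbaryl) and 0.10 (rotenone), and that of all genes between -0.0006 and 0.013. Between the highest and the lowest of the 7 libraries, 1 of the 5 members, Hikeshi, differed 2-fold, as did 9.09% of 6240 genes.

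On start totals, which 9 members have under their own identifier, Hsp90ab1 was 2-fold higher with chlorpyrifos and with DDT, and Hikeshi 2-fold lower with DDT, rotenone and carbaryl; no other of the 9 was 2-fold apart from control with any insecticide. The background on start totals was 3.14% of genes with chlorpyrifos, 3.19% with DDT, 3.0% with rotenone, 3.30% with carbaryl, 3.15% with deltamethrin and 3.02% with imidacloprid. From the lowest to the highest library, 3 of the 9 (Hsp90ab1, Dnaja1 and Hikeshi) differed 2-fold, against 14.6% of 10064 genes and 107 of the 1066 genes with a mean start total of 50 FPKM or more.

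**Figure D2:**
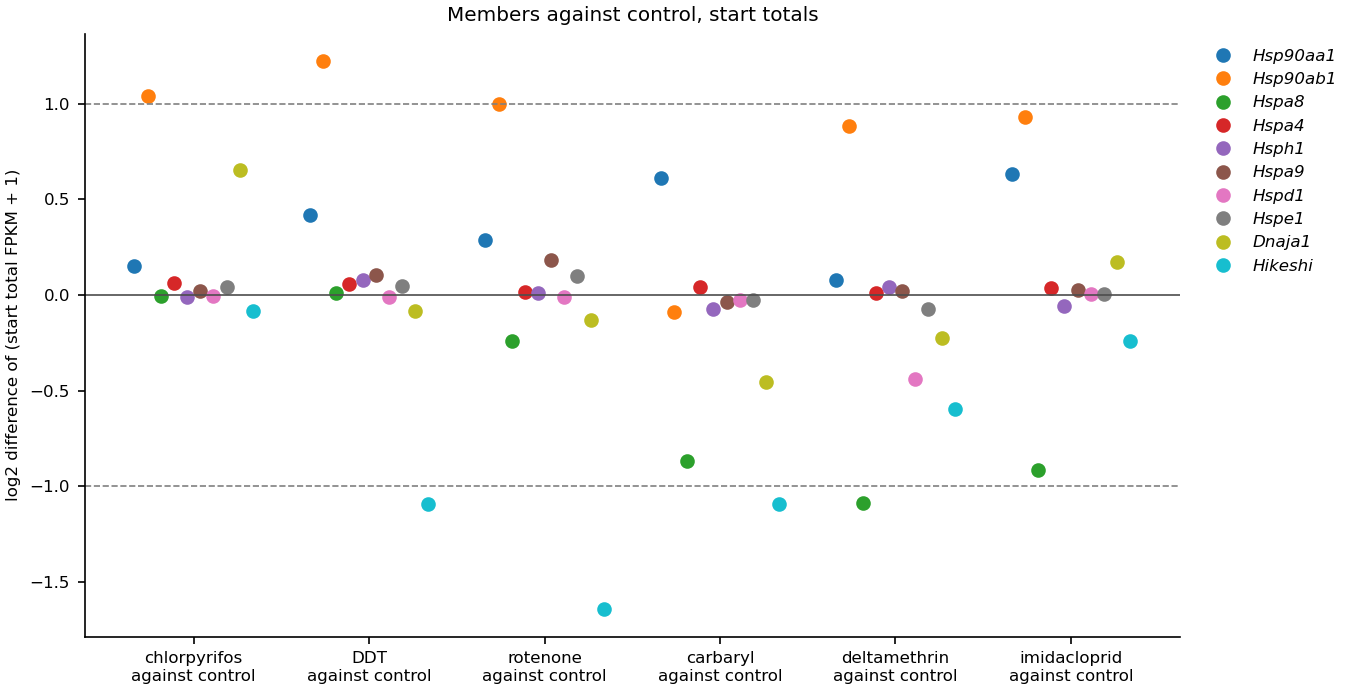
Difference of log2(start total FPKM + 1), exposed minus control, for the 10 genes in 6 comparisons that share the control library; dashed lines mark 2-fold. Hsp90ab1 lies near or above the upper line in 5 comparisons and near 0 with carbaryl, Hikeshi below the lower line with DDT, rotenone and carbaryl, and Hspa8 below it with deltamethrin.

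HSP90 is the chaperone of kinases, steroid receptors and many other signalling proteins, and Hsp90ab1 is its constitutive gene (chromosome 17, 45567775 to 45573271, minus strand, GRCm38). Its start total was 984 FPKM with chlorpyrifos, 1118 with DDT, 955 with rotenone, 451 with carbaryl, 885 with deltamethrin and 914 with imidacloprid, against 479 in control. Carbaryl and control were low and the other 5 libraries were high, with no value between 479 and 885. That split was read from these same values, and how many other genes show such a split was not counted. The log2 difference was 1.04 with chlorpyrifos, 1.22 with DDT, 0.995 with rotenone, -0.09 with carbaryl, 0.88 with deltamethrin and 0.93 with imidacloprid. The spread between libraries was at least as wide as that of 92.5% of genes with a start total. End totals were at most 0.119 FPKM, so the start totals stand without a matching end value. The part that transcript assembly plays in the 2 levels was not tested. Against the median of the other 6 libraries in place of control, the differences were 0.13 with chlorpyrifos, 0.31 with DDT and 0.09 with rotenone, and -1.05 with carbaryl.

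The difference lay in the full-length form. FPKM with the second exon (45571765 to 45571911) was 946 with chlorpyrifos, 1085 with DDT, 926 with rotenone, 418 with carbaryl, 846 with deltamethrin and 879 with imidacloprid, against 439 in control. The short form that skips to a later exon, annotated as a coding transcript, was 28.3 to 38.3 FPKM with the insecticides and 38.8 FPKM in control, a 1.37-fold range over the 7 libraries.

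Hsp90aa1 is the heat-inducible HSP90 gene (chromosome 12, 110690605 to 110702728, minus strand). It had a start total of 156 FPKM with chlorpyrifos, 187 with DDT, 171 with rotenone, 215 with carbaryl, 148 with deltamethrin and 218 with imidacloprid, against 140 in control. End totals were 152, 148, 145, 209, 142 and 211 FPKM in the same order of insecticides, and 138 FPKM in control. Carbaryl and imidacloprid were the high libraries on both totals, with log2 differences of the mean of 0.60 and 0.62, short of 2-fold. The spread of the mean between libraries was at least as wide as that of 75.3% of genes with agreeing totals. With DDT and rotenone the difference was 0.42 and 0.29 on start totals but 0.10 and 0.07 on end totals. A start at the upstream edge of the gene (110702623 to 110702728) had 31.6 FPKM with DDT, 21.7 with rotenone, 4.81 with carbaryl and 3.73 with imidacloprid, against 1.46 in control, and was not listed with chlorpyrifos and deltamethrin.

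Carbaryl and imidacloprid were also set apart by which second exon was listed. The long second exon of an annotated coding transcript (110695519 to 110695780) had 164 FPKM with carbaryl and 164 FPKM with imidacloprid and was listed in no other library, control included. The short second exon joined to the first, the form of another coding transcript, had 45.2 FPKM with carbaryl, 47.3 with imidacloprid, 142 to 152 with the other 4 insecticides and 138 in control. Both forms together therefore carry the higher total in those 2 libraries, and the 2 forms did not move the same way. The part that transcript assembly plays in which form was listed, and in the higher totals, was not tested.

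**Figure D3:**
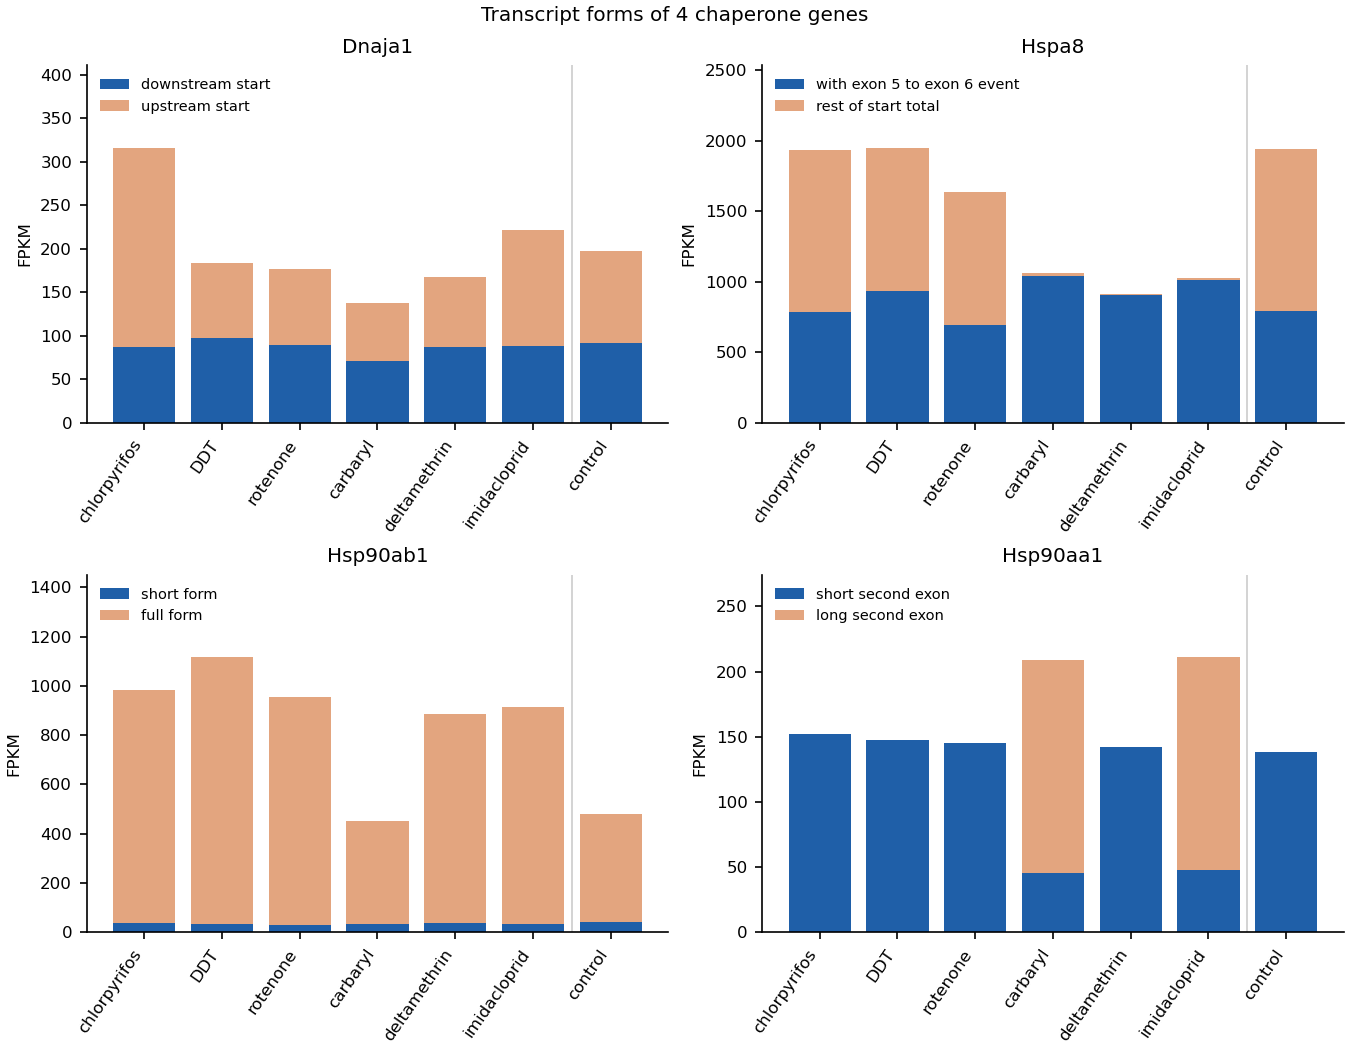
Stacked FPKM of transcript forms of Dnaja1, Hspa8, Hsp90ab1 and Hsp90aa1 in the 7 libraries, insecticides left of the vertical line and control right of it. The upstream Dnaja1 start is tallest with chlorpyrifos, the part of the Hspa8 start total outside the exon 5 to exon 6 event nearly vanishes with carbaryl, deltamethrin and imidacloprid, and the long second exon of Hsp90aa1 appears with carbaryl and imidacloprid.

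Hspa8 encodes HSC70, the constitutive HSP70 that also strips clathrin coats from vesicles (chromosome 9, 40800984 to 40810087, plus strand). The Hspa8 start total was 1933 FPKM with chlorpyrifos, 1950 with DDT, 1640 with rotenone, 1061 with carbaryl, 912 with deltamethrin and 1029 with imidacloprid, against 1938 in control. Start totals were low with carbaryl, deltamethrin and imidacloprid and higher in the other 4 libraries. That split was read from these same values, and how many other genes show such a split was not counted. The log2 difference was -0.87 with carbaryl, -1.09 with deltamethrin and -0.91 with imidacloprid, and -0.24 to 0.01 with the other insecticides. The spread between libraries was at least as wide as that of 86.6% of 10088 genes read by annotation boundaries. End totals were at most 0.695 FPKM, so here too the 2 levels stand without a matching end value. The part that transcript assembly plays in them was not tested.

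FPKM that joined exon 5 to exon 6 of the main coding transcript (exon 5 at 40802974 to 40803529, exon 6 at 40803740 to 40803942) gave another picture of Hspa8. It was 784 with chlorpyrifos, 933 with DDT, 691 with rotenone, 1041 with carbaryl, 907 with deltamethrin and 1013 with imidacloprid, against 790 in control. The 3 libraries that were low by start total were not low here, and the highest was 1.51 times the lowest. What remained of the start total after this exon pair was 1149, 1017 and 948 FPKM with chlorpyrifos, DDT and rotenone, 20.5, 4.66 and 16.0 FPKM with carbaryl, deltamethrin and imidacloprid, and 1147 FPKM in control. By this subtraction the low start totals lay in transcripts without this exon pair. A further event that joins a shorter exon 5 to exon 6 was not subtracted. It had 14.7 FPKM with carbaryl and 0.809 to 16.7 FPKM over the libraries. An earlier exon (40801918 to 40802127) was low in the same libraries as the start total. It had 1045, 909 and 1027 FPKM with carbaryl, deltamethrin and imidacloprid. With chlorpyrifos, DDT and rotenone it had 1915, 1932 and 1626 FPKM, and in control 1922 FPKM. Since introns of Hspa8 hold small nucleolar RNA genes and its lines carry the name of one of them, the part those RNAs play in the start totals was not tested.

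Hspa4 and Hsph1 encode HSP110 proteins, nucleotide exchange factors that empty HSP70. Hspa4 (chromosome 11, 53259814 to 53300457, minus strand) was the steadiest member. Its start total was 142 FPKM with chlorpyrifos, 141 with DDT, 137 with rotenone, 139 with carbaryl, 136 with deltamethrin and 139 with imidacloprid, against 135 in control. The 7 libraries spanned 0.063 on the log2 scale, and only 0.208% of 6240 genes spread as little or less.

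Hsph1 (chromosome 5, 149614287 to 149636376, minus strand) was nearly as steady in total. Its start total was 42.4 FPKM with chlorpyrifos, 45.3 with DDT, 43.0 with rotenone, 40.5 with carbaryl, 44.1 with deltamethrin and 41.0 with imidacloprid, against 42.8 in control. Only 5.88% of genes with a start total spread as little or less. End totals were 0.68 FPKM with chlorpyrifos, 20.98 to 22.7 FPKM with DDT, rotenone and deltamethrin and 0.48 FPKM in control, with none listed for carbaryl and imidacloprid, so the ends did not follow the starts.

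The Hsph1 forms differed more than the total. Exon 12 of the 19-exon coding transcript (149623465 to 149623596) has 132 bases, or 44 codons, and is skipped in another coding transcript; in mammals HSP105 is known in a long form and a shorter form, HSP105 beta, that lacks the stretch this exon encodes. The exon is shown in capitals between 10 bases of each neighbouring exon, in the sense direction, as in the GENCODE M21 transcripts (GRCm38).
Hsph1 exon 12, chr5:149623465-149623596, minus strand: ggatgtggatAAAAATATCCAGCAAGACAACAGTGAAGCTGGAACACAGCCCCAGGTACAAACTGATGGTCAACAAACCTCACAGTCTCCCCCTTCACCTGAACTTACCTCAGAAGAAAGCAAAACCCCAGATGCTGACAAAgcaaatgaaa

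The share of transcripts with exon 12 was 100% with chlorpyrifos, 88.6% with DDT, 89.6% with rotenone, 88.2% with carbaryl, 50.2% with deltamethrin and 88.9% with imidacloprid, against 100% in control. In FPKM, deltamethrin gave 21.9 with the exon and 21.8 without it, control gave 42.5 with it and the form without it was not listed, and the form without it was 4.01 to 4.42 FPKM with DDT, rotenone and carbaryl and 4.55 FPKM with imidacloprid. Deltamethrin stood 49.8 percentage points below chlorpyrifos and control. A range of 25 points or more was seen at 18.0% of the 3976 exons compared, and one as wide as that of exon 12 at 6.29%. Exon 4 (149631387 to 149631509) was in 100% of transcripts with chlorpyrifos, 76.7% with DDT, 88.1% with rotenone, 77.1% with carbaryl, 99.9% with deltamethrin and 87.4% with imidacloprid, against 100% in control.

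Dnaja1 encodes a J-domain protein that delivers clients to HSP70 in the cytosol (chromosome 4, 40722150 to 40737149, plus strand). It had a start total of 321 FPKM with chlorpyrifos, 192 with DDT, 186 with rotenone, 149 with carbaryl, 174 with deltamethrin and 230 with imidacloprid, against 204 in control. Chlorpyrifos was the highest and carbaryl the lowest library, a difference of 1.11 on the log2 scale, while the log2 differences from control were 0.65 and -0.45. The spread between libraries was at least as wide as that of 88.3% of genes with a start total. End totals were 78.2 FPKM with carbaryl, 29.0 to 30.4 FPKM with the other 5 insecticides and 28.9 FPKM in control.

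The high Dnaja1 value with chlorpyrifos lay at the upstream start. FPKM from that start was 229 with chlorpyrifos, 85.6 with DDT, 87.1 with rotenone, 67.4 with carbaryl, 81.3 with deltamethrin and 133 with imidacloprid, against 105 in control, so that chlorpyrifos was 2.19 times control. From the downstream start it was 87.0, 97.3, 89.2, 70.5, 86.5 and 88.6 FPKM in the same order of insecticides, and 92.2 in control. How many single start events of other genes differ as much as the upstream start with chlorpyrifos was not counted. The share of the 2 starts that came from the upstream start was 72.5% with chlorpyrifos, 60.04% with imidacloprid, 46.8% to 49.4% with the other 4 insecticides and 53.2% in control. The upstream window is the one with a heat shock element match in the sequences above; its part in the difference was not tested. A retained intron (40726209 to 40727956) had 10.8 FPKM with carbaryl, 29.0 to 30.4 FPKM with the other 5 insecticides and 28.9 FPKM in control. In every library but carbaryl the end total was the same as the FPKM of this retained-intron form.

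Hikeshi carries HSP70 into the nucleus in heat stress and is the only member here that is not itself a chaperone (chromosome 7, 89917529 to 89941204, minus strand). Its level was 17.1 FPKM with chlorpyrifos, 7.97 with DDT, 5.13 with rotenone, 7.98 with carbaryl, 11.7 with deltamethrin and 15.2 with imidacloprid, against 18.1 in control. Start and end totals were equal in every library. Every exposed library was below control, by 0.08 with chlorpyrifos and up to 1.64 on the log2 scale with rotenone, and the gene's spread was at least as wide as that of 98.3% of 6240 genes. Against the median of the other 6 libraries the difference was -1.24 with rotenone and -0.69 with both DDT and carbaryl, so that only rotenone stayed past 2-fold.

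An exon of 238 bases (89935727 to 89935964), number 2 in 2 coding transcripts and number 3 in another, splits the Hikeshi values by form. A junction that passes over it is annotated in the processed transcript Hikeshi-209. The exon is shown in capitals between 10 bases of each neighbouring exon, from the same transcript set, because the form without it carried most of the difference.
Hikeshi exon, chr7:89935727-89935964, minus strand: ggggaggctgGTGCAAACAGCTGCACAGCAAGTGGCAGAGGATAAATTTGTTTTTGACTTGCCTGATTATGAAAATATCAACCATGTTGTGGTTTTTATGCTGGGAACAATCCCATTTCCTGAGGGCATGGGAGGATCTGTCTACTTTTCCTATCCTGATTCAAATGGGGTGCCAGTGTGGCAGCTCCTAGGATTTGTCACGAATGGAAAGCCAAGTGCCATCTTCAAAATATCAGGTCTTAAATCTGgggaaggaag

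With the exon, Hikeshi had 8.34 FPKM with chlorpyrifos, 6.34 with DDT, 3.999 with rotenone, 6.78 with carbaryl, 8.40 with deltamethrin and 8.85 with imidacloprid, against 8.42 in control. Without it, over every listed junction that passes over the exon, the values were 8.72, 1.44, 0.965, 1.18, 3.24 and 6.35 FPKM in the same order of insecticides, and 9.71 FPKM in control. The form with the exon was within 0.43 FPKM of control with chlorpyrifos, deltamethrin and imidacloprid, while the form without it was below control in all 6 exposed libraries. With DDT the form without the exon was lower than control by 8.28 FPKM and the form with it by 2.08 FPKM; with carbaryl the 2 differences were 8.53 and 1.64 FPKM. Rotenone differed in having 4.42 FPKM less of the form with the exon as well, beside 8.75 FPKM less of the form without it. The share with the exon was 48.9% with chlorpyrifos, 81.5% with DDT, 80.6% with rotenone, 85.2% with carbaryl, 72.1% with deltamethrin and 58.2% with imidacloprid, against 46.4% in control. Hikeshi was below 10 FPKM in some libraries and so was outside the exons behind the 18.0% above.

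**Figure D4:**
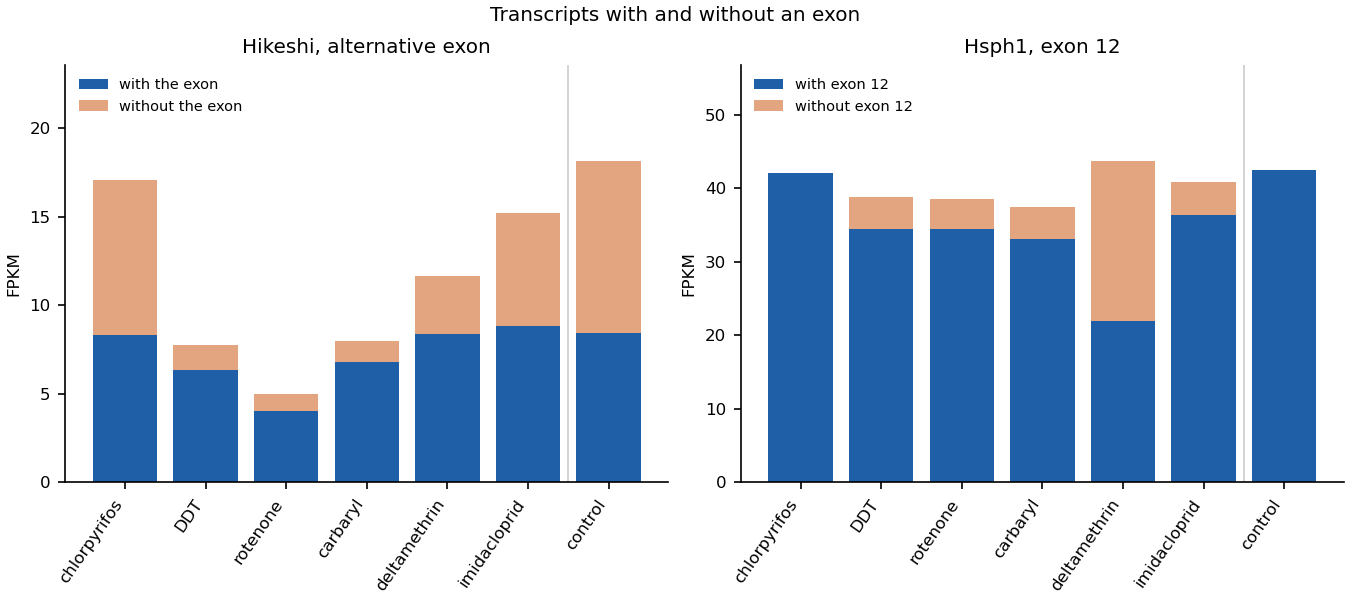
Stacked FPKM of Hikeshi transcripts with and without the 238-base exon (left) and of Hsph1 transcripts with and without exon 12 (right), insecticides left of the vertical line and control right of it. Most of the height that Hikeshi lacks with DDT, rotenone and carbaryl is in the form without the exon, and deltamethrin has the most Hsph1 without exon 12.

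Hspa9 encodes mortalin, the HSP70 of the mitochondrial matrix that pulls proteins through the import channel (chromosome 18, 34937414 to 34954357, minus strand). Its start total was 170 FPKM with chlorpyrifos, 180 with DDT, 190 with rotenone, 164 with carbaryl, 170 with deltamethrin and 171 with imidacloprid, against 168 in control. Rotenone was highest, 0.18 above control on the log2 scale, and 20.2% of genes spread as little or less. Control alone listed a transcript end of 36.2 FPKM at 34925245 to 34925265, which is 12149 bases beyond the gene and inside Etf1 on the same strand. Read by annotation boundaries, which leave that end out and so lower the control value alone, every comparison stood higher. The log2 difference was then 0.18 with chlorpyrifos, 0.27 with DDT, 0.35 with rotenone, 0.13 with carbaryl (-0.03 with that end), 0.18 with deltamethrin and 0.19 with imidacloprid. On start totals, which use no end, it was 0.02 with chlorpyrifos, 0.10 with DDT and 0.18 with rotenone. It was -0.03 with carbaryl, 0.02 with deltamethrin and 0.03 with imidacloprid on start totals.

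Hspd1 and Hspe1 encode HSP60 and HSP10, the barrel and the lid of the mitochondrial chaperonin. They overlap by 112 bases on opposite strands (chromosome 1, Hspd1 at 55077835 to 55088243 on the minus strand, Hspe1 at 55088132 to 55091307 on the plus strand), so their reads at that end are told apart by strand only where the counting used strand, and the sources used here do not state whether it did. The Hspd1 start total was 299.8 FPKM with chlorpyrifos, 299 with DDT, 299 with rotenone, 296 with carbaryl, 222 with deltamethrin and 302 with imidacloprid, against 301 in control. Deltamethrin alone was low, by 0.44 on the log2 scale, with 191 FPKM at the main start against 271 in control. The spread of Hspd1 between libraries was 0.448, close to the median of 0.453 for genes with a start total. Of those genes, 49.5% spread as little or less, so the Hspd1 difference was of ordinary size. The same library was the only one with an Hspd1 end, 38.7 FPKM, placed 56.2 kb beyond the gene inside Sf3b1 on the same strand.

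The Hspe1 start total was 214 FPKM with chlorpyrifos, 215 with DDT, 223 with rotenone, 204 with carbaryl, 198 with deltamethrin and 208 with imidacloprid, against 208 in control. The 7 values were close, and 11.5% of genes spread as little or less. Deltamethrin was the lowest library for both chaperonin genes.

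By level, the order of the members in control was Hspa8, Hsp90ab1, Hspd1, Hspe1, Dnaja1, Hspa9, Hsp90aa1, Hspa4, Hsph1 and Hikeshi by start total, from 1938 down to 18.1 FPKM. Hspe1 and Dnaja1 were neighbours at 208 and 204 FPKM, and Hsp90aa1 and Hspa4 at 140 and 135 FPKM; with 1 library there is no spread by which to separate them. Hspa8 was first and Hikeshi last in every library.

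Other chaperone genes were read from 6 further lists, each with the genes whose start and end totals agreed. Across them 1 gene was 2-fold apart from control in any comparison by the mean of both totals: Dnajc7, a co-chaperone of HSP70 and HSP90, had 21.5 FPKM with imidacloprid, 49.8 to 54.1 FPKM with the other 5 insecticides and 45.5 FPKM in control. Its log2 difference with imidacloprid was -1.05, in a comparison where 1.69% of all genes were 2-fold apart. The share of all genes 2-fold apart in any of the 6 comparisons was not counted. The lists are therefore not ranked against all genes. Of the 4 heat-inducible genes and regulators with both totals (11 listed) none was 2-fold apart; Dnajb1, the J-domain partner induced with HSP70, had 20.3 to 22.8 FPKM with the insecticides and 18.6 FPKM in control, and Bag3, a stress-inducible autophagy adaptor, 10.02 to 12.6 FPKM with the insecticides and 11.1 FPKM in control. The median of this list was between 0.0008 (rotenone) and 0.18 (imidacloprid), and the medians of the other 5 lists lay between -0.12 (mitochondrial list, rotenone) and 0.15 (TRiC and prefoldin, chlorpyrifos). Hspa1a and Hspa1b, the inducible HSP70 genes, have a single exon and no start or end total under their identifiers.

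Of the 7 HSP90 co-chaperones with both totals (11 listed), Sugt1 had 17.8 FPKM with carbaryl and 9.31 FPKM in control, and Ahsa1, which stimulates the HSP90 ATPase, 57.1 FPKM with imidacloprid and 88.9 FPKM in control. Among the 10 HSP70 co-chaperones (15 listed) Bag2 had 4.48 FPKM with deltamethrin, 8.72 to 12.7 FPKM with the other 5 insecticides and 6.80 FPKM in control. Of the 9 mitochondrial chaperones and proteases (12 listed), the protease gene Htra2 had 13.2 FPKM with rotenone and 23.2 FPKM in control, and Afg3l2 17.7 FPKM with rotenone and 22.3 FPKM in control. Among 8 genes of TRiC (the cytosolic chaperonin) and prefoldin (14 listed), Pfdn4 had 53.8 FPKM with chlorpyrifos and 32.3 FPKM in control, and Cct4 86.3 FPKM with carbaryl and 54.7 FPKM in control. Among 9 endoplasmic reticulum chaperones (11 listed) Calr had 317 FPKM with chlorpyrifos and 212 FPKM in control, and Hspa5, the resident HSP70 of that compartment, 194 FPKM with imidacloprid and 259 FPKM in control. None of these reached 2-fold against control. A further 20 entries of the 6 lists had a start total only, with Dnaja3 in more than 1 list. Of these, 1 was 2-fold apart from control, by a start total with no matching end: Cct5, a subunit of TRiC. Cct5 had 78.5 FPKM with deltamethrin, 132 to 234 FPKM with the other 5 insecticides and 226 FPKM in control. Its log2 difference was -1.51 with deltamethrin, where 3.15% of all genes were 2-fold apart on start totals.

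**Figure D5:**
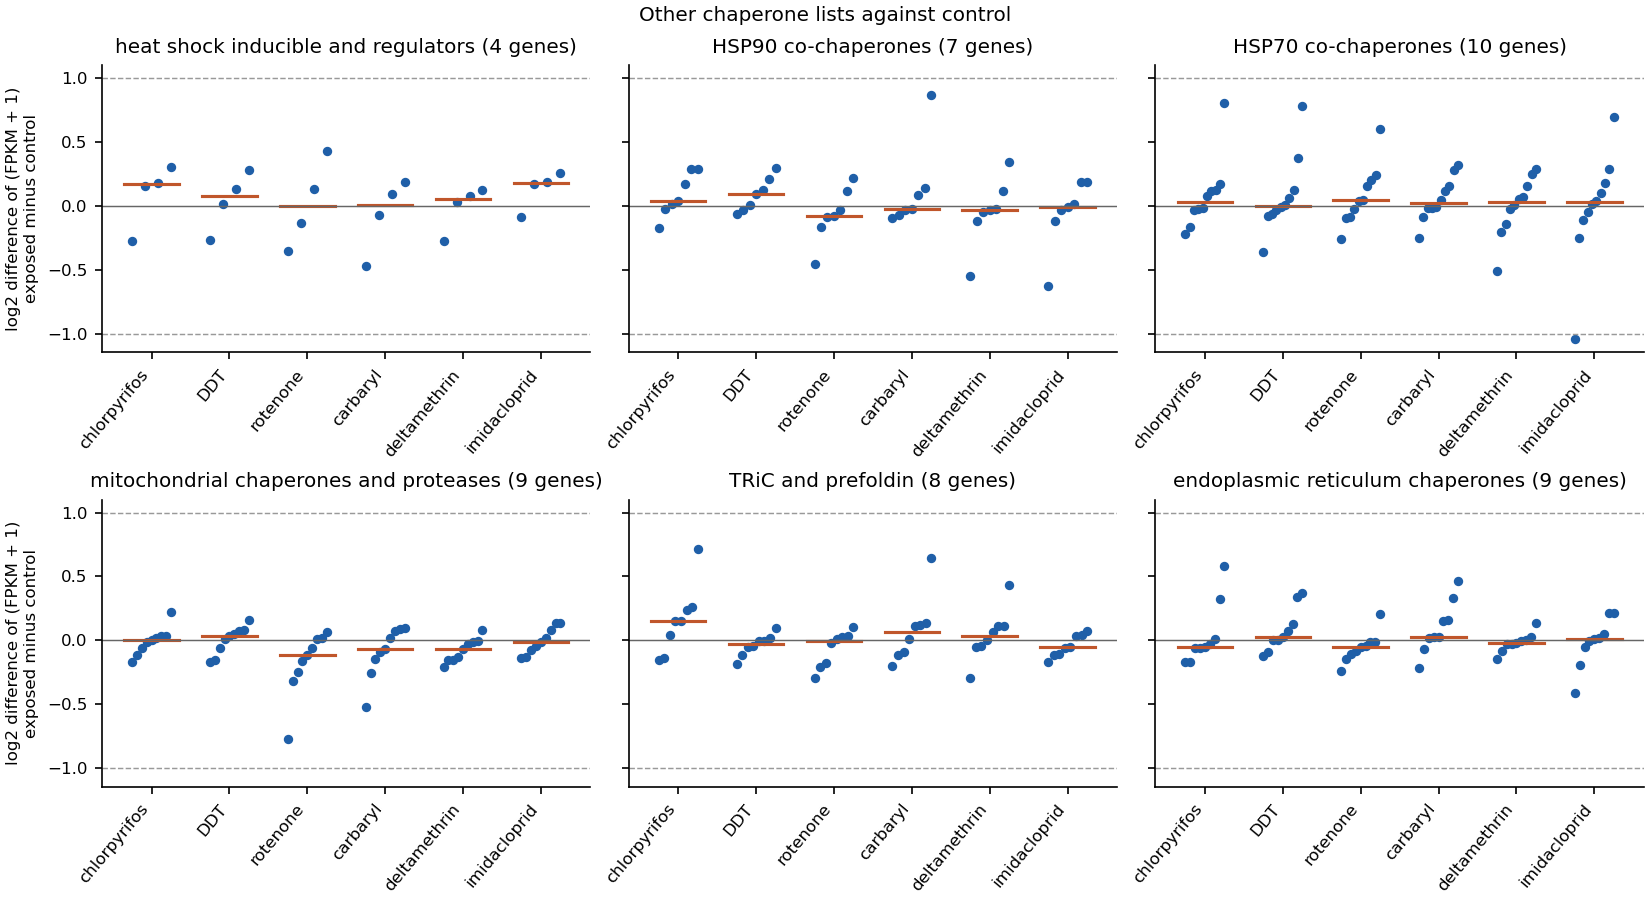
Difference of log2(FPKM + 1), exposed minus control, for single genes (points) and the list median (bars) of 6 other chaperone lists in 6 comparisons that share the control library; dashed lines mark 2-fold. Nearly all points lie within 0.5 of 0, and Dnajc7 with imidacloprid is the point below the lower line.

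The profiles most like the mean of the 5 members with agreeing totals, by Pearson's r over the 7 libraries, were those of Rpl4 (r = 0.995), Gemin8 (r = 0.975) and Sox8 (r = 0.964), out of 4716 genes compared. In all, 20 genes reached 0.9 over these 7 points, and the mean profile follows Hikeshi, the member with the widest spread. The r values are a description of 7 libraries.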

How the data were processed

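Total RNA was extracted with NucleoSpin RNA after exposure, per the labels' protocols. The submitters' processing notes name bcl2fastq 2.17.1.14, cutadapt 1.9.1, HISAT2 2.0.1 and the GRCm38 build. The deposited tables give the authors' FPKM for start, end and exon events of assembled transcripts; the sources used here do not name the tool that made them. They list only values above 0 (lowest 1e-06), so an unlisted event was summed as 0, and the FPKM give no counts, so depth and counting error are unknown. The authors' tables repeat 1973 to 2078 lines per library, which were used once.

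Distinct events were summed per gene on the gene's own strand (99.84% of the FPKM under a known identifier). Genes whose mean reached 1 FPKM were compared on log2(FPKM + 1), a scale that understates the change of low genes, in Python 3.11.15 with pandas 2.3.3, and annotated with GENCODE M21. Calls are 2-fold differences, with no test; no fold was taken where a library was at 0. The procedure was tested on simulated data. The alternatives tried were the start or end total alone, a pseudocount of 0.1 FPKM, no filter, a filter of 5 FPKM, median ratio scaling, annotation boundaries, the median of the other libraries as baseline and, chosen after seeing the data, events on both strands. The members and lists were chosen with earlier results of these data known. All 10 members are named, with the 2 genes of each further list with the largest absolute difference at 5 FPKM or more and the 3 genes most like the members' mean profile; Cct5, the forms and the single exons were chosen after their values were seen.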

Additional observations from a re-analysis of the deposited data

How the results depend on the processing

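No paired analysis was possible because each group has 1 library. For the same reason no library could be left out of a group. The number of members at 2-fold depended on which total was used. With the start total alone, of 9 members, it was 1 with chlorpyrifos (0 on the mean of both totals) and 2 with DDT (1 on the mean). The share of all genes there was 3.14% and 3.19%. On start totals 3 of the 9 members differed 2-fold between some 2 libraries (1 on the mean), as did 14.6% of genes. With the end total alone it was 2 with DDT, 2 with rotenone and 2 with carbaryl (1 each on the mean). It was 1 with deltamethrin (0 on the mean). These were of 7 members, or 6 with carbaryl. The share of all genes was 3.84% with DDT, 3.4% with rotenone, 4.01% with carbaryl and 3.52% with deltamethrin. The added call with DDT, rotenone and deltamethrin was the Hsph1 end, at 21.4, 22.7 and 20.98 FPKM against 0.48 in control. On end totals 2 of 6 members differed 2-fold between some 2 libraries, as did 14.6% of genes. Start and end totals cover different members, which by construction changes these counts. Against the median of the other libraries in place of control, the count was 0 with DDT and 0 with carbaryl, and the members' median with rotenone was -0.024 in place of 0.10. On that baseline Hsp90ab1 was lower with carbaryl, by 1.05 on the log2 scale, and its difference was 0.13 with chlorpyrifos and 0.31 with DDT, so that neither passed 2-fold. No other setting moved a count by over 1.5 times, and no difference that was 2-fold on the reported totals changed sign. Dnaja1 with carbaryl, among the calls on the end total alone, was 1.41 there against -0.45 on its start total. The control end total was that of the retained-intron form (28.9 FPKM), which had 10.8 FPKM with carbaryl. The call may therefore set unlike transcripts side by side. Depth is unknown, so for Hikeshi, the member with the lowest level, counting error could not be set beside the differences.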
